A study of Oryza sativa with 11 samples.

Results

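The salt response averaged over 2 rice genotypes was measured on all 11 Affymetrix Rice Genome Arrays of the series, 6 from salt-stressed and 5 from control roots. The arrays were chosen by treatment alone, and 1 salt effect was fitted to each probe set with genotype as an additive term, so the estimate is a pooled change and not the overlap of 2 lists. FL478 is a salt-tolerant recombinant inbred line and IR29 is its salt-sensitive parent. FL478 had 3 control and 3 salt arrays, IR29 had 2 control and 3 salt arrays, and each array is labelled as a biological replicate. All samples were RNA from root tips, the last 2 cm of the roots, taken 30 days after germination. Salt plants had received sodium chloride with calcium chloride, raised over 3 days to about 60 mM NaCl and an electrical conductivity of 7.4 dS/m and held there for 5 days, while control plants stayed at 1.1 dS/m. The labels describe hydroponics and the study's methods describe sand tanks, with the treatments in separate tanks, so tank and salt cannot be told apart.

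Roots meet salt first as a drop in water potential and then as an influx of sodium. In the growing tip, elongation depends on turgor and on loosening of the primary wall by expansins and xyloglucan endotransglucosylases, while class III peroxidases can either cross-link or open wall polymers. Sodium entry also competes with potassium uptake, and ion pumping and osmotic adjustment draw on respiration and on amino acid pools.

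Signals are scanner intensities in arbitrary units, and changes are differences of log2(signal + 32), salt minus control, which understate changes of dim probe sets. The calls rest on limma, with p-values adjusted by the Benjamini-Hochberg method and a threshold of 0.10. Of 57258 probe sets, 325 were called (0.568%), of which 125 rose (0.218%) and 200 fell (0.349%). At an unadjusted p under 0.05 the count was 6116 (10.7%). The called changes ran from 0.48 to 3.65 in size, with a median of 0.96, and 151 of the 325 were at least 1. The median change over all probe sets was 0.00. The count of calls depended on single libraries: it was 90 without IR29 control replicate 1 and 441 without IR29 salt replicate 3, and it was 135, 140 and 166 without FL478 control replicates 1, 2 and 3, 179 and 148 without FL478 salt replicates 1 and 3, and 141 and 167 without IR29 salt replicates 1 and 2. All of the 325 kept their direction in each of those fits. They were selected on these same arrays, so kept directions, here and for the groups below, are no separate evidence.

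Each of the 325 called probe sets had the same sign of change in FL478 and in IR29. In 317 of them the salt and control arrays of both genotypes lay apart in the same direction, against 1831 of all probe sets (3.2%). In 256 every one of the 6 salt arrays lay beyond all 5 control arrays, against 898 of all probe sets (1.57%). Because the pooled test favours changes that the genotypes share, these counts describe the calls and are no separate evidence. When each genotype was tested alone, FL478 gave 97 calls over the whole array (0.169%) and IR29 gave 3 (0.00524%). The 325 held 55 of the former and 2 of the latter, and 269 passed in neither genotype alone. The median size of the 325 changes was 0.98 in FL478 and 0.91 in IR29, and the change was larger in FL478 for 189 and larger in IR29 for 136. The pooled estimate weighted FL478 by 55.6% and IR29 by 44.4%, because IR29 had fewer control arrays. Weighting the genotypes equally gave 313 calls, of which 260 were among the 325.

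**Figure D1:**
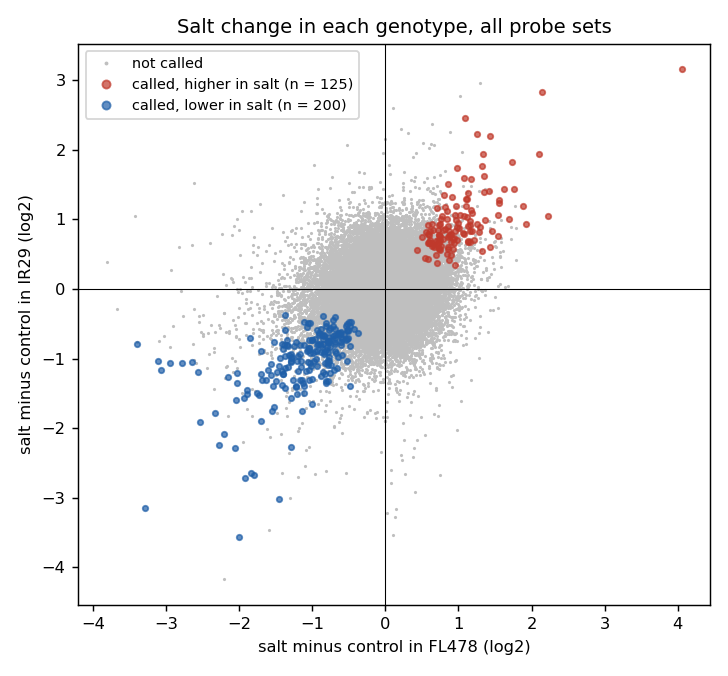
Salt minus control change (log2) of all 57258 probe sets in FL478 (horizontal) and in IR29 (vertical), with the 125 probe sets called higher in red and the 200 called lower in blue. Called probe sets lie only in the quadrants where both genotypes changed in the same direction.

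The largest rise was that of BURP10 (LOC_Os06g17000, chromosome 6), a secreted protein with a BURP domain that the study's annotation relates to the dehydration-responsive RD22 and to a polygalacturonase subunit. Its signals were 7.9, 5.7 and 109 units on the FL478 control arrays, 357, 1376 and 1745 on the FL478 salt arrays, 173 and 162 on the IR29 control arrays and 2021, 1573 and 1674 on the IR29 salt arrays. All salt arrays lay above all control arrays, and the lowest salt value came from FL478 salt replicate 1. The change was 3.65 ± 0.45 (SE, n = 6 and 5, adjusted p = 0.0193), with 4.05 ± 0.60 in FL478 and 3.16 ± 0.67 in IR29, and it stayed called whichever of the 11 arrays was left out.

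Cell wall genes were the largest of the groups described here. By the descriptions in the annotation and in the study's tables, 20 of the 275 called genes or loci were counted as wall proteins or wall-modifying enzymes. Of these 14 rose and 6 fell, and of all 275 called genes or loci 108 rose. The 20 include the wall-associated kinase WAK110 and glucan endo-1,3-beta-glucosidase 7, at 0.95 and 0.81. Glucan endo-1,3-beta-glucosidase GII, also called, at -1.01, was not counted among them. The 20 were grouped after their values had been seen. Most come from tables that the study drew from these same arrays, so the count is a description. EXPA19 (LOC_Os03g06060, chromosome 3), an alpha-expansin, gave 349, 656 and 601 units on the FL478 control arrays, 1246, 2039 and 2414 on the FL478 salt arrays, 492 and 650.1 on the IR29 control arrays and 1564, 1949.6 and 1332 on the IR29 salt arrays. The salt arrays did not overlap the control arrays in either genotype, and the change was 1.62 ± 0.22 (SE, adjusted p = 0.0204). The other alpha-expansins called were EXPA31 (LOC_Os03g31480), at 1.11 ± 0.23 (SE), and EXPA25 (LOC_Os03g06010), at 1.06 ± 0.18 (SE), both on chromosome 3. EXPA31 stayed called in 1 of the 11 fits that leave out 1 array, that without FL478 control replicate 2, at 0.96 to 1.24 over those fits, and had an adjusted p of 0.116 with the GAPDH covariate. A beta-expansin, EXPB5 (LOC_Os04g46650), fell by 0.64 ± 0.13 (SE) on the log2 scale.

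Enzymes of xyloglucan, the polymer that tethers cellulose microfibrils, moved both ways. A xyloglucan endotransglucosylase (LOC_Os08g14210), which cuts and rejoins these chains, gave 139.6, 217 and 132 units on the FL478 control arrays, 379, 405 and 609.7 on the FL478 salt arrays, 101 and 138 on the IR29 control arrays and 335, 416 and 343 on the IR29 salt arrays. These groups did not overlap, and the change was 1.37 ± 0.16 (SE, adjusted p = 0.0167). XTH23 (LOC_Os06g48180), of the same enzyme family, gave 2539.7, 1948 and 2455 units on the FL478 control arrays, 1115, 1125 and 1001 on the FL478 salt arrays, 2902 and 2765 on the IR29 control arrays and 1523, 1267 and 1782 on the IR29 salt arrays. Here every salt array lay below every control array, with a change of -0.99 ± 0.12 (SE, adjusted p = 0.0201). A xyloglucan galactosyltransferase (LOC_Os10g32170), which adds galactose side chains in the Golgi, rose by 1.54. XOAT11, a xylan O-acetyltransferase, rose by 0.64, a pectin acetylesterase (LOC_Os07g44070) by 0.69 and a beta-D-xylosidase (LOC_Os11g19210) by 0.75. A wall protein like gp1 (LOC_Os07g23640) rose by 1.69 ± 0.34 (SE), with 1.09 in FL478 and 2.45 in IR29. Its call was lost in 10 of the 11 fits that leave out 1 array, at 1.46 to 2.01 over those fits. With the GAPDH covariate its adjusted p was 0.1315. The 2 glycine-rich wall proteins (LOC_Os10g31460 and LOC_Os10g31660) fell by 1.72 and 0.80, and the call of the former was lost in 8 of those 11 fits. The deepest fall in the group was that of a glucan 1,3-beta-glucosidase (LOC_Os10g22520), at -1.73 ± 0.23 (SE, adjusted p = 0.0204). A list of expansins and xyloglucan endotransglucosylases, found by symbol, had 30 genes, of which 1, EXPA31, was called in the fit to all arrays (3.33%), with a median change of 0.12. Across all 17905 annotated genes 1.01% were called (0.43% higher and 0.581% lower) and the median was 0.03, and the other wall genes above were named through loci in the study's tables or lie outside that list.

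Class III peroxidases, secreted haem enzymes, divided into those that rose and those that fell. Of 8 called loci described as such peroxidases, 5 rose and 3 fell. Peroxidase 52 (LOC_Os06g35480) gave 707, 1409 and 914 units on the FL478 control arrays, 2544, 5511 and 3536 on the FL478 salt arrays, 941 and 1315 on the IR29 control arrays and 2886, 2718 and 2227 on the IR29 salt arrays. The salt arrays all lay above the controls, and the change was 1.58 ± 0.25 (SE, adjusted p = 0.0357). One described as peroxidase 1 (LOC_Os07g44550) was far brighter and rose by 1.19 ± 0.16 (SE), and one described as peroxidase 2 (LOC_Os03g22010) rose by 1.41 ± 0.18 (SE). In the opposite direction, a different locus with the description peroxidase 2 (LOC_Os06g33080) gave 919, 258 and 895 units on the FL478 control arrays, 118, 57.9 and 114 on the FL478 salt arrays, 771 and 404 on the IR29 control arrays and 108, 102 and 237 on the IR29 salt arrays. Its salt values all lay under the controls, with a change of -2.09 ± 0.35 (SE, adjusted p = 0.0458). It was -2.34 to -1.91 over the fits that leave out 1 array, and the call was lost without FL478 control replicate 1 or 3, FL478 salt replicate 3, IR29 control replicate 1, or IR29 salt replicate 1 or 2. Peroxidase 66 and peroxidase 50 fell by 1.06 and 1.01. The call of peroxidase 52 was lost only without IR29 control replicate 1. Without IR29 control replicate 1, 7 of the 20 wall loci and 2 of the 8 peroxidase loci passed the threshold, and all kept their direction. At most 12 wall loci stayed called without any other array than FL478 control replicate 2 (14), FL478 salt replicate 2 (15) or IR29 salt replicate 3 (16). At most 5 peroxidase loci did without any other array than FL478 salt replicates 1 (7) and 2 (6), IR29 control replicate 2 (6) or IR29 salt replicate 3 (7).

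In carbon metabolism, 13 called loci described as enzymes or carriers of glycolysis, fermentation, the tricarboxylic acid cycle and respiration fell, by 0.48 to 2.70, while 2 of 3 called loci of sugar and starch metabolism rose. Both groups were drawn with the values in view, and of all 275 called genes or loci 167 fell. L-lactate dehydrogenase (LOC_Os06g01590), which reduces pyruvate in fermentation, changed most: 15066, 22576 and 4202 units on the FL478 control arrays, 2352, 6154 and 1475 on the FL478 salt arrays, 10794 and 4243 on the IR29 control arrays and 355, 768 and 581 on the IR29 salt arrays. FL478 arrays overlapped between treatments, and the change of -2.70 ± 0.54 (SE, adjusted p = 0.0838) was -3.14 to -2.30 over the 11 fits that leave out 1 array and stayed called in 2 of them, without FL478 control replicate 3 or FL478 salt replicate 2. Alcohol dehydrogenase 1 (LOC_Os03g08999), the terminal enzyme of ethanol fermentation, fell by 0.70 ± 0.12 (SE). Enolase 2 (LOC_Os03g14450) fell by 0.55, and the pyrophosphate-dependent phosphofructokinase (LOC_Os10g26570) by 1.05. Phosphoenolpyruvate carboxylase (LOC_Os01g11054), which feeds carbon into the cycle, fell by 1.09.

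Several proteins that pass pyruvate into and through the mitochondrion fell by under 1 on the log2 scale. A brain protein 44 homologue (LOC_Os08g25590), of the family of mitochondrial pyruvate carriers, gave 7197, 7924 and 6978 units on the FL478 control arrays, 5155, 5458 and 5236 on the FL478 salt arrays, 7936 and 7557 on the IR29 control arrays and 5568, 5536 and 5539.5 on the IR29 salt arrays. The 6 salt arrays were all under the 5 controls and the change was -0.48 ± 0.09 (SE, adjusted p = 0.0689), with -0.48 ± 0.13 in FL478 and -0.48 ± 0.14 in IR29. Of the 11 fits that leave out 1 array it stayed called only in that without IR29 salt replicate 3, at -0.50 to -0.45 over all of them. Of the pyruvate dehydrogenase complex, the acetyltransferase component fell by 0.77 (LOC_Os06g01630) and 0.49 (LOC_Os07g22720), and dihydrolipoyl dehydrogenase (LOC_Os05g06750), shared with related complexes, fell by 0.55. In the cycle itself isocitrate dehydrogenase fell by 0.74 and the succinate dehydrogenase flavoprotein by 0.75, and cytochrome c oxidase subunit Vb fell by 0.61. An aconitase annotated as cytoplasmic (LOC_Os03g04410) fell by 0.65. All of these but alcohol dehydrogenase 1 and lactate dehydrogenase had 6 salt arrays under 5 control arrays. In the sugar and starch group, chloroplast fructose-1,6-bisphosphatase (LOC_Os06g45370) rose by 0.66 ± 0.13 and soluble starch synthase 1 (LOC_Os06g06560) by 0.95 ± 0.17 (SE), while an invertase-like protein (LOC_Os04g45290) fell by 1.70. None of the 3 stayed called without FL478 control replicate 1, FL478 salt replicate 1 or IR29 control replicate 1. The trehalose-6-phosphate phosphatase TPP2, outside these groups, fell by 1.35. A glycolysis and fermentation list drawn up by symbol, which holds other genes, had 23 members with no call and a median of -0.06. Its members with the smallest p were the hexokinases HXK6, at -0.75 ± 0.18, and HXK2, at -0.48 ± 0.12 (SE, adjusted p = 0.149 and 0.157). With the GAPDH 3′/5′ ratio as a covariate 8 of the 13 loci stayed called. Without IR29 control replicate 1 only the pyrophosphate-dependent phosphofructokinase did, and 6 or fewer stayed called without any other array than IR29 salt replicate 3, where 9 did. All 13 kept their direction in those fits.

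Called genes of amino acid synthesis and turnover were likewise mostly lower. Of 10 called loci in nitrogen and amino acid metabolism, 9 fell and 1 rose, and of all 275 called genes or loci 167 fell. This group too was drawn with the values in view. Asparagine synthetase (LOC_Os03g18130), which makes the main nitrogen storage amide, gave 13035, 14389.8 and 19718 units on the FL478 control arrays, 9126, 6710.4 and 6845 on the FL478 salt arrays, 19379.5 and 15326 on the IR29 control arrays and 6287, 8474 and 6235 on the IR29 salt arrays. No salt array reached the lowest control, and the change was -1.16 ± 0.16 (SE, adjusted p = 0.0223), a call kept whichever array was left out. Alanine aminotransferases fell by 1.02 (LOC_Os03g08530) and 0.78 (LOC_Os10g25130), a branched-chain aminotransferase (LOC_Os03g12890) by 1.25, glutamate dehydrogenase (LOC_Os03g58040) by 0.51 and isopropylmalate dehydrogenase (LOC_Os01g16900), of leucine synthesis, by 0.85. Of cysteine synthesis, a serine acetyltransferase locus (LOC_Os01g52260) fell by 1.28 ± 0.25 and a cysteine synthase locus (LOC_Os06g36850) by 2.15 ± 0.39 (SE). Their calls were lost in 8 and 7 of the 11 fits that leave out 1 array. With the GAPDH covariate their adjusted p was 0.117 and 0.0903. The cysteine synthase signal was 6.5 to 82.0 units on salt arrays. The 1 locus of the group that rose was spermidine synthase (LOC_Os06g33710), a polyamine enzyme, at 1.06 ± 0.19 (SE, adjusted p = 0.0559). Without IR29 control replicate 1, 3 of the 10 were called, and 6 or fewer were called without any other array than FL478 salt replicate 2 (7) or IR29 salt replicate 3 (9).

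**Figure D2:**
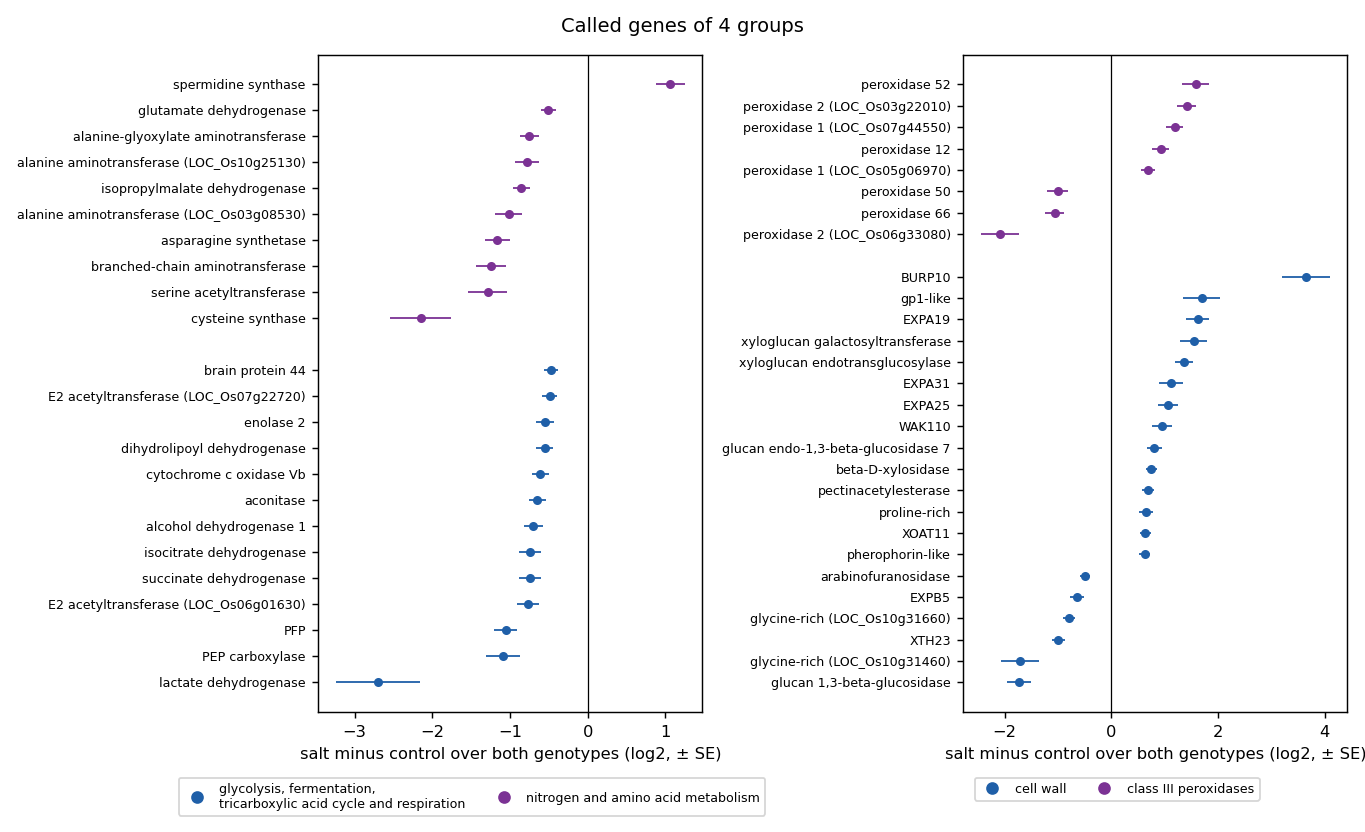
Pooled salt minus control change (log2) with its standard error for the called loci of 4 groups, 1 probe set per locus, from 6 salt and 5 control arrays. All 13 loci of glycolysis, fermentation, the tricarboxylic acid cycle and respiration and 9 of 10 of nitrogen and amino acid metabolism lie below 0, while 14 of 20 wall loci and 5 of 8 peroxidase loci lie above it.

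Called transporters of ammonium and of phosphate changed in opposite directions within their families. Of 16 called loci described as carriers or pumps of nutrients and metabolites, 3 rose and 13 fell. Among all 275 called genes or loci 167 fell. All 16 kept their direction when 1 array was left out, but 6 stayed called (1 higher, 5 lower) without FL478 control replicate 1, FL478 salt replicate 3 or IR29 salt replicate 1 or 2, and 10 or fewer without any other array than IR29 control replicate 2 (12) or IR29 salt replicate 3 (16). AMT3-2 (LOC_Os03g62200), an ammonium transporter, gave 695, 601 and 686 units on the FL478 control arrays, 956, 1263 and 1899 on the FL478 salt arrays, 738 and 438 on the IR29 control arrays and 1399.7, 1155 and 1488 on the IR29 salt arrays. Its salt arrays lay above all controls and the change was 1.07 ± 0.19 (SE, adjusted p = 0.0559), and 0.92 to 1.19 over the 11 fits that leave out 1 array. It stayed called without FL478 salt replicate 1, FL478 salt replicate 2 or IR29 salt replicate 3 and in no other of those fits. AMT2-3 (LOC_Os01g61510), another member of the family, gave 495, 542 and 545 units on the FL478 control arrays, 213, 218 and 293 on the FL478 salt arrays, 1114 and 626 on the IR29 control arrays and 409.5, 355 and 633 on the IR29 salt arrays on its annotated probe set. The IR29 arrays overlapped, and the change was -0.95 ± 0.18 (SE, adjusted p = 0.0735). It was -1.11 to -0.84 over the fits that leave out 1 array and stayed called only without IR29 control replicate 2 or IR29 salt replicate 3. These were the 2 called members of the 17 genes on the nitrate and ammonium assimilation list (11.8%), whose median was -0.10.

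The 2 called phosphate transporters had opposite signs. The phosphate transporter PT2 (LOC_Os03g05640) gave 7253, 9534 and 9972 units on the FL478 control arrays, 5765, 4989 and 4369.6 on the FL478 salt arrays, 12594 and 7242 on the IR29 control arrays and 3481, 3934 and 4018 on the IR29 salt arrays. Salt arrays were all lower and the change was -1.04 ± 0.18 (SE, adjusted p = 0.0473), -1.14 to -0.85 over the fits that leave out 1 array. The call was lost without FL478 control replicate 2 or 3, FL478 salt replicate 3, or IR29 salt replicate 1 or 2. PT6 (LOC_Os08g45000) rose by 0.90 ± 0.17 (SE), although FL478 salt values of 181 to 283 overlapped IR29 control values of 206 and 242. It stayed called only without FL478 control replicate 3, FL478 salt replicate 1 or IR29 salt replicate 3, at 0.83 to 0.99 over the fits that leave out 1 array. A protein with an SPX domain (LOC_Os02g45520), a domain of phosphate sensing, rose by 1.60 ± 0.25 (SE) from control signals of 37.0 or less. Sulfate transporter 3.1 (LOC_Os03g06520) was also dim, with 2.6 to 21.1 units on the control arrays and 49.3 to 91.0 on the salt arrays, and rose by 1.35 ± 0.15 (SE, adjusted p = 0.0127).

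The called carriers of amino compounds fell. An amino acid-polyamine transporter (LOC_Os01g61044) fell by 1.17, the peptide transporter PTR2 (LOC_Os02g37040) by 1.0, a ureide permease (LOC_Os12g31860) by 0.78 and a cationic amino acid transporter (LOC_Os12g42850) by 0.64. Nodulin-like proteins of the MtN21 kind, a family of membrane carriers, fell at all 4 called loci, by 3.22 ± 0.52 (LOC_Os01g36560), 2.16 ± 0.23 (LOC_Os05g41420), 1.31 ± 0.27 (LOC_Os07g34110) and 1.18 ± 0.15 (SE, LOC_Os02g52930). The first of them gave 2926, 1863 and 1185 units on the FL478 control arrays, 219, 433 and 31.2 on the FL478 salt arrays, 1010.1 and 349 on the IR29 control arrays and 59.8, 4.4 and 75.2 on the IR29 salt arrays. Within each genotype the salt arrays were lower, and the highest FL478 salt value exceeded the lowest IR29 control value. The call was lost without FL478 control replicate 1 or IR29 control replicate 1, and the change was -3.53 to -2.81 over the fits that leave out 1 array. HMA5 (LOC_Os04g46940), a copper-transporting ATPase that loads copper into root xylem in rice, gave 6361, 6573 and 6729.5 units on the FL478 control arrays, 2477, 2559 and 2613 on the FL478 salt arrays, 6073 and 4981 on the IR29 control arrays and 2733, 3159 and 4112 on the IR29 salt arrays. Every salt array lay below every control array, with a change of -1.08 ± 0.15 (SE, adjusted p = 0.0242), and was the 1 called gene among 54 of iron, zinc and metal homeostasis, whose median was -0.12. HMA5 included, 14 of the 54 were lower and 2 higher at an unadjusted p under 0.05, where 10.7% of all probe sets stood in either direction. The list takes each gene's brightest probe set, and of the 28629 probe sets above the median level 4460 had such a p.

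Of 19 called loci of proteases and defence proteins, 14 fell and 5 rose, and of all 275 called genes or loci 167 fell. Without IR29 control replicate 1 the count was 7, all lower, and without FL478 control replicate 2, FL478 salt replicate 3 or IR29 salt replicate 1 it was 8 (1 higher, 7 lower). It was 11 without FL478 control replicate 1 or 3 or FL478 salt replicate 1, and all 19 kept their direction. A gamma-thionin (LOC_Os03g03810), a small antimicrobial peptide, gave 2065, 2946 and 1536 units on the FL478 control arrays, 497, 605 and 265 on the FL478 salt arrays, 1701 and 1307 on the IR29 control arrays and 279.9, 475 and 266 on the IR29 salt arrays. The groups did not overlap and the change was -2.15 ± 0.24 (SE, adjusted p = 0.0127). Aspartic proteinases fell at 4 loci, by 2.19 (LOC_Os10g39390), 1.72 (LOC_Os10g39360), 1.64 (LOC_Os01g64840) and 0.76 (LOC_Os01g42320), and 2 neighbouring bromelain-like cysteine proteases fell by 1.27 (LOC_Os01g24550) and 0.68 (LOC_Os01g24560). PIR7B, an esterase described further on, was the 1 called gene among 26 on the list of pathogenesis-related proteins and chitinases, whose median was 0.06. A subtilisin-like protease (LOC_Os01g64860) and xylem cysteine proteinase 2 (LOC_Os01g42790), which acts in the autolysis of vessel elements in Arabidopsis, rose by 1.38 and 1.18. Dirigent proteins, which steer the coupling of phenolic radicals, differed by locus: LOC_Os01g26340 rose by 2.45 ± 0.45, and LOC_Os03g59440 and LOC_Os11g07740 fell by 1.4 ± 0.13 and 1.05 ± 0.15 (SE). The first gave 122, 6.0 and 138 units on the FL478 control arrays, 198, 368 and 897 on the FL478 salt arrays, 98.2 and 41.5 on the IR29 control arrays and 623, 749.7 and 621 on the IR29 salt arrays. All salt values lay above the control values. The call stayed without FL478 control replicate 1 or 3, FL478 salt replicate 1 or IR29 salt replicate 3 and was lost without any other array, and the change was 2.13 to 2.72 over those fits.

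Called phenolic enzymes likewise divided, with 5 called loci higher and 6 lower. A cinnamoyl-CoA reductase-like protein (LOC_Os09g09230) rose by 1.71 ± 0.26, and of 2 O-methyltransferases described as ZRP4, LOC_Os11g12760 rose by 1.48 ± 0.26 and LOC_Os12g25490 fell by 2.02 ± 0.34 (SE). Phenylalanine ammonia-lyase (LOC_Os04g43800), the entry enzyme of the pathway, fell by 0.84. Cytochromes P450 described as 72A1 (LOC_Os01g43774), 78A3 and 81E1 fell by 2.11, 1.31 and 0.91. Of the 11 loci of the group, 4 stayed called without IR29 control replicate 1 (2 higher, 2 lower), 5 without FL478 control replicate 2 and 7 or fewer without any other array than IR29 control replicate 2 (8) or IR29 salt replicates 2 (8) and 3 (10). In the 11 fits that leave out 1 array the call was lost in 9 for phenylalanine ammonia-lyase and in 10 for the 72A1 protein, over ranges of -0.92 to -0.76 and -2.38 to -1.89.

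Among regulators, an ethylene-responsive factor-like protein (LOC_Os03g22170) gave 7661, 8507 and 6153 units on the FL478 control arrays, 2889, 1919 and 1683 on the FL478 salt arrays, 5528 and 3440.3 on the IR29 control arrays and 576, 643 and 757 on the IR29 salt arrays. Every salt array lay below every control array, and the change was -2.19 ± 0.22 (SE, adjusted p = 0.00965). BZIP52 (LOC_Os06g45140), a basic leucine zipper factor, fell by 1.35 ± 0.18 (SE) and was the 1 called gene of 26 on the bZIP and DREB list. An AP2-domain protein (LOC_Os04g44670) fell by 0.89 and a NAC-domain protein (LOC_Os07g48550) by 1.02, while WRKY18 rose by 0.82, the zinc-finger protein C3H35 by 1.09 and a helix-loop-helix protein (LOC_Os10g23050) by 0.98. A protein of the FT family, FTL11 (LOC_Os11g18870), fell by 2.26 ± 0.36 (SE). Of the 18 called loci of regulators and hormone genes, 7 stayed called without IR29 control replicate 1 and 10 or fewer without any other array than IR29 control replicate 2 (15) or IR29 salt replicate 3 (16).

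SMR1 (LOC_Os10g39920), of a family of cyclin-dependent kinase inhibitors that check cell division, gave 556, 833 and 424 units on the FL478 control arrays, 1436, 1892 and 1323 on the FL478 salt arrays, 543 and 745 on the IR29 control arrays and 2528, 1569.6 and 2119 on the IR29 salt arrays. Salt values were all above control values, with a change of 1.47 ± 0.20 (SE, adjusted p = 0.0204), a call kept whichever array was left out. Of 26 genes on the list of dividing cells none was called, none had an unadjusted p under 0.05, and the median was 0.09. The list also holds KRP5, a cyclin-dependent kinase inhibitor and so no marker of division, at 0.20 ± 0.11 (SE). The summed signal of the 26 was 17342 to 25368 units on the control arrays and 18623 to 24755 on the salt arrays.

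The auxin list had 1 called gene of 59 (1.69%) and the cytokinin list 1 of 32 (3.12%), against 1.01% of annotated genes. PIN5 (LOC_Os01g58860), an auxin efflux carrier, gave 2568, 3239.8 and 2336 units on the FL478 control arrays, 982, 1538 and 819.6 on the FL478 salt arrays, 2538 and 1209 on the IR29 control arrays and 488, 398 and 958 on the IR29 salt arrays. Salt values were lower within each genotype, at -1.42 ± 0.27 (SE, adjusted p = 0.0689). Over the fits that leave out 1 array it was -1.56 to -1.21 and stayed called only without FL478 salt replicate 2, IR29 control replicate 2 or IR29 salt replicate 3. It was the called gene on the auxin list, whose median was 0.10. In cytokinin metabolism LOGL1 (LOC_Os01g51210), which releases the active base, fell by 0.83 ± 0.13 (SE) as the called gene on its list, and CKX1 (LOC_Os01g09260), which degrades cytokinin, fell by 0.85 ± 0.11 (SE). A locus that the study's tables describe as a gibberellin 20-oxidase and the UniProt entry as a putative anthocyanidin synthase (LOC_Os01g61610) rose by 1.68 ± 0.23 and 1.32 ± 0.25 (SE) on 2 probe sets. The second of them stayed called only without FL478 salt replicate 1 or IR29 salt replicate 2 or 3, at 1.18 to 1.45 over the fits that leave out 1 array. An ACC synthase (LOC_Os01g09700), of ethylene synthesis, fell by 0.79.

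**Figure D3:**
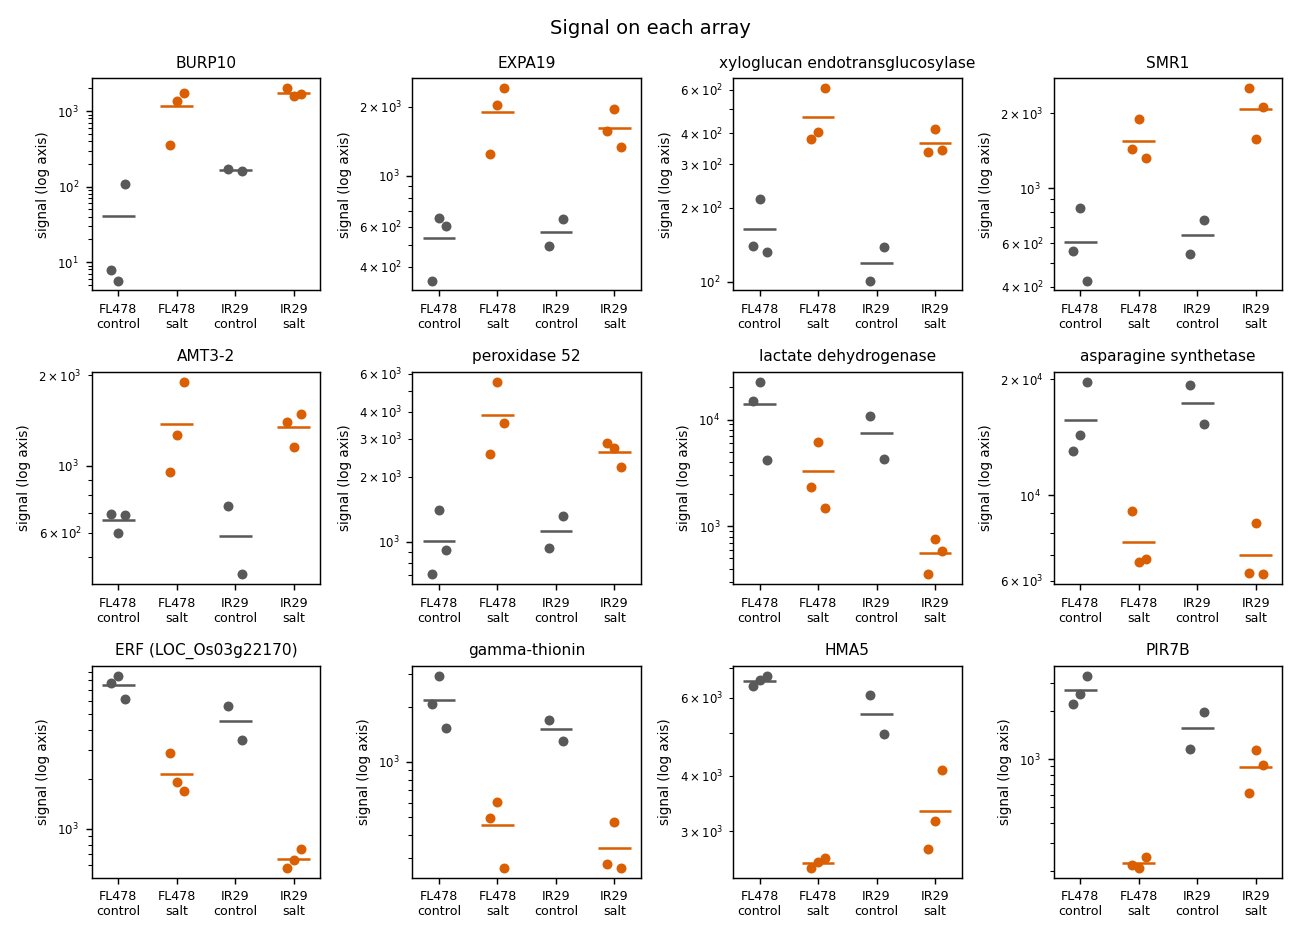
Signal of 12 called genes on each array (log axis, arbitrary units), control in grey and salt in orange, with a bar at the mean of each group (n = 3, 3, 2 and 3). For BURP10 the 6 salt arrays lie above all controls, and for lactate dehydrogenase the FL478 groups overlap.

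On the lists of genes tied to sodium, water and drought no gene was called in the pooled fit, against 1.01% of annotated genes. Lists this short would hold few or no calls at that share, so the absence of calls does not show a lack of response. At an unadjusted p under 0.05 stood 6 of 26 sodium and potassium transport genes (2 higher, 4 lower) and 4 of 25 aquaporins (all higher). So did 2 of 22 abscisic acid genes (1 higher, 1 lower), 10.7% of all probe sets and 4460 of the 28629 above the median level. None of 26 sodium and potassium transport genes was called, and their median was 0.03. The smallest p belonged to the potassium transporter HAK23, at 0.42 ± 0.10, and to the potassium channel AKT1, at -0.83 ± 0.22 (SE, adjusted p = 0.139 and 0.188). HKT1.5, the xylem sodium retrieval transporter, named here after its values were seen, had 0.67 ± 0.57 (SE, adjusted p = 0.762), with 1.23 ± 0.76 in FL478 and -0.03 ± 0.85 in IR29. None of 25 aquaporin genes was called, with a median of 0.07, and Lsi6 and PIP2-6 had the smallest p, at 0.52 ± 0.16 and 0.34 ± 0.15 (SE). None of 22 genes of abscisic acid synthesis and signalling was called, with a median of 0.06, and the kinases SAPK7 and SAPK3 had the smallest p, at 0.43 and -0.27.

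The salt-induced lectin salT, of the list of dehydrins, LEA proteins and SalT, gave 7276, 4245 and 6049 units on the FL478 control arrays, 2698, 2221 and 3505 on the FL478 salt arrays, 3218 and 3553 on the IR29 control arrays and 2496, 3109.5 and 3469.8 on the IR29 salt arrays. FL478 salt values were lower than its controls and the IR29 values overlapped, with a pooled change of -0.66 ± 0.21 (SE, adjusted p = 0.283). PM19L1, a membrane protein inducible by abscisic acid, had a pooled change of -2.01 ± 0.46 (SE, adjusted p = 0.132). It passed the limma threshold in FL478 alone, at -2.95 ± 0.47 (SE, adjusted p = 0.0806), and had -0.83 ± 0.53 (SE) in IR29. None of the 10 genes on that list was called in the pooled fit and their median was -0.08.

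Of the 29 lists, 22 had no called gene, against 1.01% of annotated genes called. The lowest median among lists of at least 5 genes was that of 6 WRKY genes, -0.76, led by WRKY62 at -1.20 ± 0.28 and WRKY76 at -1.02 ± 0.34 (SE, adjusted p = 0.136 and 0.298). None of the 6 was called. The median of these WRKY genes was -1.19 in FL478 and -0.42 in IR29, a difference that was not tested. WRKY18, which was called at 0.82, is not on that list. The 50 genes of jasmonate and diterpenoid phytoalexin synthesis had a median of -0.40, with 41 below 0 and 9 above. Their median was -0.76 in FL478 and 0.02 in IR29, a difference that was not tested. AOS3, an allene oxide synthase, had -1.54 ± 0.21 in FL478 and -0.21 ± 0.24 in IR29 (SE, pooled adjusted p = 0.185), and the lipoxygenase LOX3 had -0.68 ± 0.21 (SE). The 29 cytochromes P450 had a median of -0.16, and besides AOS3 the smallest p belonged to AOS2, at -1.36 ± 0.46 (SE). The 21 ribosomal protein genes had the highest median, 0.18, with 20 above 0, and RPL7A and RPS7 at 0.26 and 0.24.

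Other lists held no call and medians near 0. They were cellulose synthases and their relatives (34 genes, median 0.09; CSLD1 at -0.64 and CSLD2 at 0.50), phenylpropanoid genes by symbol (20 genes, 0.06; CAD7 at -0.69 and CAD6 at -0.96), ethylene (21 genes, 0.11; ACO1 at 0.95 and ERS2 at 0.39) and heat shock proteins (47 genes, -0.02; HSP17.4 at -1.71 and CLPB1 at 0.45). The same held for reactive oxygen scavenging (16 genes, 0.04; AOX1 at -1.16 and APX1 at 0.30), glutathione S-transferases (6 genes, -0.01; GST1 at 0.74 and gst2 at -0.41), NAC factors (8 genes, -0.06; NAC45 at -0.61 and NAC071 at -0.42) and the 2 class III peroxidases that the symbols reached (PRX112 at -0.19 and PRX74 at -0.14).

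**Figure D4:**
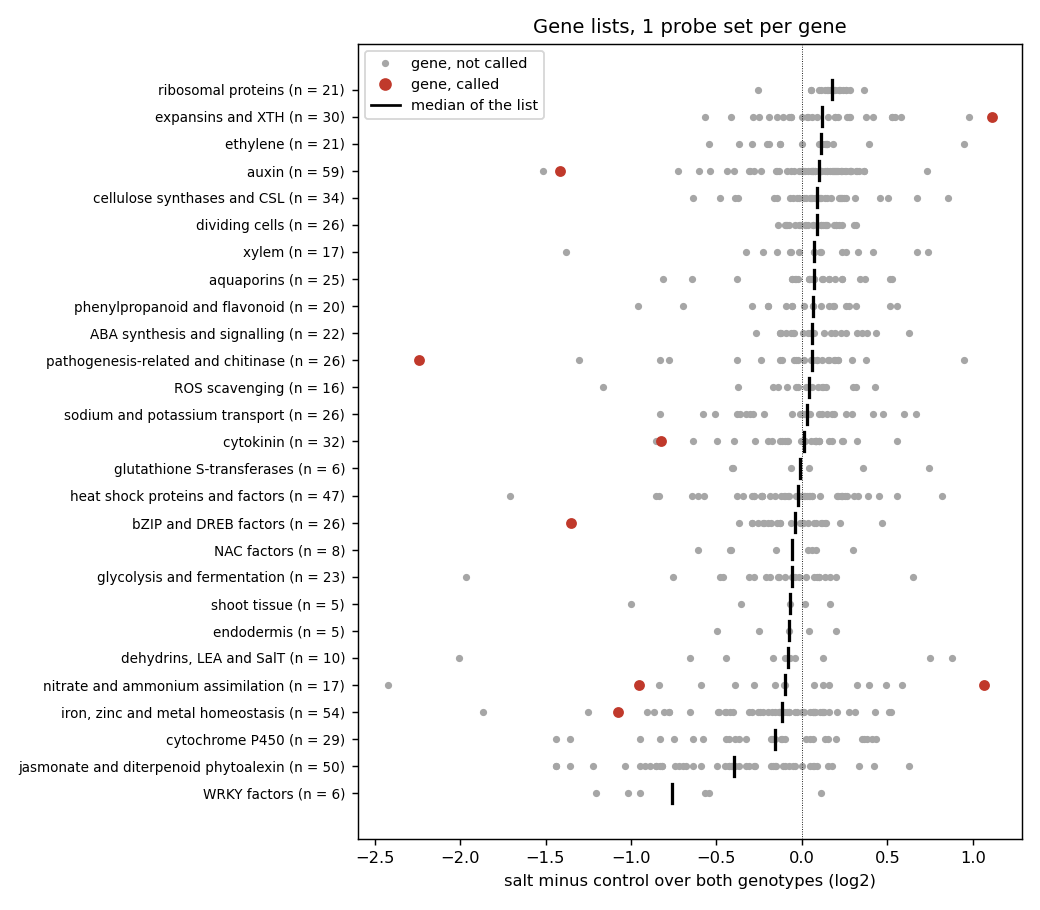
Pooled salt minus control change (log2) of each gene on the lists of 5 or more genes, 1 probe set per gene, with called genes in red and the median of each list as a black bar. Called genes are few, and the medians of the WRKY list (-0.76) and the jasmonate and phytoalexin list (-0.40) lie farthest from 0.

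Markers of tissues that a root tip sample could hold in varying shares were compared between treatments, and in bulk RNA a smaller number of cells of a type and less RNA per cell cannot be told apart. None of 17 xylem markers was called (median 0.07). IRX9, of xylan synthesis in secondary walls, had 0.73 ± 0.16 and the laccase LAC24 -1.38 ± 0.44 (SE), and the summed signal was 24619 to 38743 units in salt and 25130 to 33311 in control. In FL478 the xylem sums did not overlap, at 36248 to 38743 in salt and 28389 to 33311 in control. Of 5 endodermis markers none was called. The silicon exporter Lsi2 had -0.50 ± 0.13 and CASP1 -0.25 ± 0.16 (SE), with summed signals of 43695 to 53774 in salt and 50181 to 57340 in control. The 1 root hair marker, CSLD1, gave 150 to 240 units in salt and 265 to 405 in control, at -0.64 ± 0.15 (SE, adjusted p = 0.134), so its groups did not overlap although it was not called. The 5 shoot markers summed to 288 to 937 units in salt and 404 to 1342 in control, with FL478 at 469 to 585 in salt and 907 to 1342 in control, and PSAG, of photosystem I, had -1.0 and CAB2R, of the light-harvesting complex, -0.36 ± 0.42 (SE). One xylem and 1 shoot marker were under 32 units on all arrays. The part of cell composition in the calls was not tested.

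No difference between genotypes was called for any probe set in limma at an adjusted p under 0.10 (0.0%), and 2596 (4.53%) had an unadjusted p under 0.05. Among the 325 called probe sets 21 (6.46%) had such a p. The esterase PIR7B (LOC_Os01g70850), known in rice from the response to bacteria, had the smallest, and gave 2224, 2565 and 3325 units on the FL478 control arrays, 218, 209 and 244 on the FL478 salt arrays, 1163 and 1968 on the IR29 control arrays and 611, 1136 and 922 on the IR29 salt arrays. FL478 salt arrays were far under their controls and IR29 salt arrays lay just under theirs. The change was -3.40 ± 0.27 in FL478 and -0.79 ± 0.30 in IR29 (SE), and the difference, IR29 minus FL478, was 2.62 ± 0.40 (SE, unadjusted p = 7e-05, adjusted p = 0.404). The call of its pooled change of -2.24 ± 0.44 (SE, adjusted p = 0.0742) stayed without IR29 control replicate 1, IR29 salt replicate 2 or IR29 salt replicate 3 and was lost without any other array, over a range of -2.66 to -2.02. Its p reached 0.119 after adjustment with the GAPDH covariate.

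The next in order were a ground-like protein (LOC_Os04g55980), a ZRP4-like O-methyltransferase (LOC_Os12g25490), LOC4349815, for which the files give no function, and a pathogenesis-related protein 1 (LOC_Os07g03730). For these the changes are given with their SE. LOC_Os04g55980 had -1.37 ± 0.16 in FL478 and -0.37 ± 0.18 in IR29. The O-methyltransferase had -2.78 ± 0.31 and -1.06 ± 0.34, and pathogenesis-related protein 1 had -1.85 ± 0.25 and -0.71 ± 0.28. LOC4349815 ran the other way, with -0.49 ± 0.18 in FL478 and -1.40 ± 0.20 in IR29. None of these differences passed the adjusted threshold.

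The remaining named genes with large changes have less certain roles. A lipid-binding protein (LOC_Os04g33920) rose by 1.77 ± 0.24, a RING-H2 protein (LOC_Os05g36310) by 1.52 ± 0.27 and a metallothionein-like protein (LOC_Os01g10400) by 1.43 ± 0.17 (SE). LOC_Os01g45470, LOC_Os01g45914 and LOC4348769, with no described function, fell by 2.25, 2.22 and 2.27, and LOC_Os04g51160, described as an unclassified transposon protein, fell by 2.18. LOC_Os01g45470 kept its call whichever array was left out. LOC_Os01g45914 kept it only without FL478 salt replicate 1, IR29 control replicate 2 or IR29 salt replicate 3, LOC_Os04g51160 only without IR29 salt replicate 3, and LOC4348769 only without FL478 control replicate 3 or FL478 salt replicate 2. LOC_Os01g45470 gave 6409.7, 8000.5 and 6296 units on the FL478 control arrays, 1598, 1111 and 879 on the FL478 salt arrays, 6577 and 4117 on the IR29 control arrays and 1388, 952 and 1906 on the IR29 salt arrays. Its salt arrays all lay far under the controls. Among 40 called probe sets that neither source names, the largest rises were 2.03 ± 0.20 and 1.77 ± 0.23, and the largest falls -1.76 ± 0.33 and -1.64 ± 0.30 (SE).

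RNA quality measures were compared between treatments by a two-sided exact permutation test within genotypes, which cannot give a p below 0.005. The log2 GAPDH 3′/5′ ratio was 0.30 to 4.35 on salt arrays and 1.51 to 2.73 on control arrays (exact p = 0.985, adjusted over 4 measures 0.985), and the actin ratio was 1.81 to 2.61 and 1.92 to 2.40 (exact p = 0.17, adjusted 0.37). The test compares means and not spread. The mean GAPDH ratio was 1.66 (SD 0.18) on control and 1.34 (SD 0.95) on salt arrays of FL478. In IR29 it was 2.16 (SD 0.81) on control and 2.45 (SD 1.70) on salt arrays. The highest ratio, 4.35, was that of an IR29 salt array, so RNA quality was not even across arrays. With the GAPDH ratio as a covariate 245 probe sets were called, of which 230 were among the 325. Signals under 32 units made up 36.6% to 41.9% of each array (exact p = 0.335, adjusted 0.447), and array medians were 48.8 to 61.3 (exact p = 0.185, adjusted 0.37).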

How the data were processed

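Root tip RNA of 11 samples was hybridised to 1 array each. The authors deposited linear signal intensities from the Affymetrix software GCOS, scaled per array, and no scanner images or probe intensities were used here. Of 57381 probe sets 123 controls starting with AFFX were left out. Values became log2(signal + 32), and limma 3.58.1 in R 4.3.3 fitted genotype and salt as additive terms to all 11 arrays, with p-values adjusted by Benjamini-Hochberg over 57258 probe sets and a call at 0.10. A second fit of the 4 group means gave each genotype's own change and the difference. The additive fit was also run on simulated intensities with independent noise and the same salt change in both genotypes. That simulation held no effects of single arrays, so it cannot show how the test behaves on these arrays. Tables and figures were made with Python 3.11.15, pandas 2.3.3, numpy 2.4.6 and matplotlib 3.10.9. Replicates are labelled biological, but nothing says how plants were pooled, so p-values measure the spread between these samples. The number of arrays limits the precision.

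Probe sets were named through the GEO platform annotation (22436 with 1 gene, 95 with several, 34727 with none) and through loci in the study's supplementary tables (1609), which the study had selected on these arrays, so names from them are no independent evidence. A gene on a list was represented by its brightest probe set. Named genes were the 14 largest rises and 14 largest falls among called, named probe sets above the median level, up to 2 unnamed probe sets in each direction, up to 4 called genes of each of 29 lists or else the 2 with the smallest p, and the 5 called probe sets with the smallest p for the difference between genotypes. Other genes in the text, and the 9 groups of 118 called loci, were picked with their values in view. The probe sets, lists and tests were chosen with earlier results of these data known. Lists drawn up by symbol miss genes that have only a locus number. Alternatives were offsets of 16 and 64, a floor of 32, quantile normalization, a filter at the median level, an intensity trend with robust variance, a replicate block, a threshold of 0.05, the GAPDH ratio as a covariate, no genotype term, equal genotype weights, the mean over a gene's probe sets and leaving out each array. A description of promoter motifs was not run, since no sequences were used here.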

Additional observations from a re-analysis of the deposited data

Results flagged for a closer look

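Of 354 sets of 5 control or 6 salt arrays examined, 16 held 1 array farther from the rest than Dixon's 95% limit, where chance alone flags about 1 in 20. The ratio given is the gap to the nearest array over the whole range. IR29 control replicate 2 was the low control for serine acetyltransferase (0.751), GST1 (0.854), WRKY76 (0.827), CAD7 (0.827) and the dirigent protein LOC_Os03g59440 (0.756). IR29 control replicate 1 was the high control for AMT2-3 (0.714) and the unnamed probe set with the second largest rise (0.723). FL478 control replicate 2 was the high control for glucan endo-1,3-beta-glucosidase 7 (0.877) and EXPA31 (0.83), and FL478 control replicate 3 the low one for the cinnamoyl-CoA reductase-like protein (0.737).

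Among the salt arrays, FL478 salt replicate 1 was lowest for BURP10 (0.773) and CSLD1 (0.65), and FL478 salt replicate 2 for peroxidase 50 (0.690). FL478 salt replicate 3 was highest for the xyloglucan endotransglucosylase LOC_Os08g14210 (0.643). IR29 salt replicate 3 was highest for HSP17.4 (0.664) and lowest for the aspartic endopeptidase LOC_Os10g39360 (0.642).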

How the results depend on the processing

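None of the 325 called probe sets changed direction in any setting, which is no separate evidence, since they were selected on these arrays. The count of calls (125 higher, 200 lower) moved. It was 599 (248 higher, 351 lower) with an offset of 64, 202 (82 and 120) with 16, 807 (351 and 456) over the 28629 probe sets above the median level, 805 (328 and 477) under a robust variance that follows the intensity, 210 (81 and 129) without the genotype term and 145 (54 and 91) at an adjusted p under 0.05. Quantile normalization, a floor of 32, the GAPDH covariate and equal genotype weights left it within 1.5 times. Leaving out 1 array gave 90 to 441 calls, 31 to 164 higher and 59 to 277 lower, fewest without IR29 control replicate 1 and most without IR29 salt replicate 3. With the replicate number as a block 413 were called (131 and 282), of which 177 were among the 325. Deviations from the group means correlated between same-numbered samples at 0.18, 0.07 and 0.11 in FL478 and -0.07 and 0.05 in IR29. Correlations of differently numbered samples were not computed beside these, so whether the numbers pair samples was not settled. The main fit treated the samples as unpaired. In the block fit IR29 salt replicate 3, which has no control of the same number, carries no weight.

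The difference between genotypes was called for 41 probe sets (10 higher, 31 lower) with a floor of 32 and for 3 (2 and 1) above the median level. Leaving out 1 array gave 0 to 18 (0 to 1 higher, 0 to 18 lower), with 18 without IR29 control replicate 2 and 1 without IR29 salt replicate 1. The median of the dehydrin, LEA and SalT list was -0.31 over genes above the median level. The cause of these shifts was not tested. Depth is unknown in scanner signals, and 36.6% to 41.9% of values lay under 32 units, where the offset compresses changes.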
